A study of Mus musculus with 12 samples.

Results

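The regions described here are short peaks of the histone variant H2A.Z that were listed in wild-type spermatogenic cells, had no counterpart in cells without Ino80, carried INO80 in wild-type cells and lay away from the ends of protein-coding genes. They were selected on the deposited peak positions. A member is a wild-type H2A.Z peak from the narrowest 70.0% of the wild-type list that overlapped no knockout H2A.Z peak by even 1 bp, overlapped an INO80 peak by at least 1 bp, and lay more than 1 kb from both annotated ends of every protein-coding gene (mm10, RefSeq). Of 33827 wild-type H2A.Z peaks, 817 met the rule. The criteria left 10173 peaks without a knockout peak (30.1%), then 9951 within the width limit, then 1458 with INO80, before the gene distance was applied.

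The cells came from testes of mice of mixed background at postnatal day 18, an age at which many germ cells of the first spermatogenic wave are in meiotic prophase. H2A.Z was precipitated from Ino80cKO cells, in which Ino80 was deleted by Stra8-Cre (a Cre recombinase expressed from the promoter of Stra8, which is active in germ cells before meiosis), and from Ino80WT cells, and INO80 was precipitated from wild-type cells. Each of these 3 ChIP groups, and each matching input group, had 2 libraries, 12 in all, and the labels leave unsaid whether both libraries of each group were made from separate animals. Chromatin was cut with micrococcal nuclease, and the lists do not show how closely peak outlines follow nucleosomes. Each ChIP group is represented by 1 peak list with positions alone: 26199 knockout H2A.Z peaks with a median width of 422 bp, 33827 wild-type H2A.Z peaks of 460 bp and 18139 INO80 peaks of 678 bp. The read depth is unknown, no value has a replicate error, and no test over samples was possible. Intervals are 95% intervals (Wilson for shares, Newcombe for differences of shares) that cover counting error only and treat neighbouring peaks as independent. The lists hold nothing that checks the deletion or the labelled cell type. Stra8-Cre acts in germ cells, so somatic testis cells left in the preparation would keep Ino80.

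INO80 is the motor subunit of a chromatin remodelling complex that slides nucleosomes and can act on those that contain H2A.Z, while the related SRCAP complex places H2A.Z in nucleosomes. H2A.Z is found at promoters, at enhancers and at developmental genes held silent by Polycomb complexes, where active and repressive histone marks occur together (poised chromatin). The series title names INO80 and a Polycomb subunit in the making of such chromatin in spermatocytes, and these regions bear on the part of that question that concerns H2A.Z away from gene ends.

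The sequences below belong to members that overlapped the window around an annotated transcription start, or a miRNA, in spite of the distance rule. That rule looked only at the outer ends of protein-coding genes. A member can overlap a window without reaching the start itself. The first pair are the mature products of Mir1247, the miRNA gene that a member overlapped, with the seed (bases 2 to 8) in capitals. Both come from a 426 bp member on chromosome 12 (110277724 to 110278149) next to Dio3, the gene of a deiodinase that inactivates thyroid hormone, and inside a 5628 bp INO80 peak.
miR-1247-5p: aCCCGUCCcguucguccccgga
miR-1247-3p: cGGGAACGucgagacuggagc

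The start windows of the 5 protein-coding genes with the widest INO80 peaks follow, then those of a pair of long noncoding RNAs (lncRNAs) at members under wide INO80 peaks. Each runs from 250 bases before to 50 after an annotated start, on the strand given (RefSeq, GRCm38.p6), and capitals mark the bases inside the member. They were chosen after their values were seen. Where Gnas had overlapping windows, 1 is shown.
Prdm12 start (chr2:31639787-31640086, plus strand): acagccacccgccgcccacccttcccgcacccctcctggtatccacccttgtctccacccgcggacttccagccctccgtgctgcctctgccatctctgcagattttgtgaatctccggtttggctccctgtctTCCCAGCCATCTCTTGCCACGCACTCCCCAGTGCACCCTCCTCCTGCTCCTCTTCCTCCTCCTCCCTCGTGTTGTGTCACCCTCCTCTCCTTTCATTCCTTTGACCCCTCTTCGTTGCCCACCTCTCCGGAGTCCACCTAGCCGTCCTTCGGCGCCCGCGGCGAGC
Gnas start (chr2:174327499-174327798, plus strand): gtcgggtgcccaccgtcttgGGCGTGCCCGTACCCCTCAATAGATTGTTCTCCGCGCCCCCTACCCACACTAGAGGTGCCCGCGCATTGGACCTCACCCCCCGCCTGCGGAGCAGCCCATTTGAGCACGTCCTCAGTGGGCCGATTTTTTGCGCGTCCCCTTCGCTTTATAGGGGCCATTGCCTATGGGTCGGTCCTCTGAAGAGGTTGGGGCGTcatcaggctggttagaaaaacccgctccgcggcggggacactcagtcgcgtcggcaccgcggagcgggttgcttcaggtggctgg
Tfap2a start (chr13:40733746-40734045, minus strand): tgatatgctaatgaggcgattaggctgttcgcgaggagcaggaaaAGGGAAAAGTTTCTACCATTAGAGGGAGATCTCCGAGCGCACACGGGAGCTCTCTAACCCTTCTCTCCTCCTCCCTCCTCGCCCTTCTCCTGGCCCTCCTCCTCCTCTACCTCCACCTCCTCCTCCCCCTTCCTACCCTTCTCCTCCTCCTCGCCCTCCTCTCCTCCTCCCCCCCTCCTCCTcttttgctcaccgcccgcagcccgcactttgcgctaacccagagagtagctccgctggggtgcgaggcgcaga
Gad2 start (chr2:22622077-22622376, plus strand): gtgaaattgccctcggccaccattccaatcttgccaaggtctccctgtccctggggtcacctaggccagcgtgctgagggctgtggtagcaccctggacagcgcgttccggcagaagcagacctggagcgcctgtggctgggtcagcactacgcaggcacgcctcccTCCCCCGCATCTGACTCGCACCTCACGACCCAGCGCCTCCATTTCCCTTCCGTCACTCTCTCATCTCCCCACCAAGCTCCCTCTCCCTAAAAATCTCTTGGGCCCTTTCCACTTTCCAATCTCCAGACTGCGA
Lrp3 start (chr7:35215296-35215595, minus strand): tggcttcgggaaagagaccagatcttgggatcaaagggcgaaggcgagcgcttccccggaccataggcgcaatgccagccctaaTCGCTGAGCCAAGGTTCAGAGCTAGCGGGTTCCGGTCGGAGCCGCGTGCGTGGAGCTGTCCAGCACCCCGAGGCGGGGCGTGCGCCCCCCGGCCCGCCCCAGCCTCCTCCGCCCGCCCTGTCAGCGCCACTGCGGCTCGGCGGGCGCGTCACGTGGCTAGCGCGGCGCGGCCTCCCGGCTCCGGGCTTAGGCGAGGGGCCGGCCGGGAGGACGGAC
Dio3os start (chr12:110278019-110278318, minus strand): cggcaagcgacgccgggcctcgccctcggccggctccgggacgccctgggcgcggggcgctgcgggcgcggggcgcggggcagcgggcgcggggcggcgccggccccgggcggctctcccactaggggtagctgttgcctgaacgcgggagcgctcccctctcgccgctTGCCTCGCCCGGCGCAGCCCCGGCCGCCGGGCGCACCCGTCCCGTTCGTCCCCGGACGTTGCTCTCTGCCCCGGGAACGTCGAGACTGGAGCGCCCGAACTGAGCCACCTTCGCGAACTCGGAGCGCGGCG
Fendrr start (chr8:121083061-121083360, minus strand): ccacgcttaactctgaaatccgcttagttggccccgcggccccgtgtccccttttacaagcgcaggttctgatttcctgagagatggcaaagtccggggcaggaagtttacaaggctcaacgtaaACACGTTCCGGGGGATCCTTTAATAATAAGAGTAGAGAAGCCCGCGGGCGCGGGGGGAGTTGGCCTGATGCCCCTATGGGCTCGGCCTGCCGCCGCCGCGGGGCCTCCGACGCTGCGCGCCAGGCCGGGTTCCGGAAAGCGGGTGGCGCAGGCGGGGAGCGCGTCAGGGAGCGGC

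Prdm12 and Tfap2a encode transcriptional regulators of sensory neurons and neural crest, Fendrr is transcribed divergently from the forkhead gene Foxf1, and Dio3os is the antisense partner of imprinted Dio3. Gnas, itself imprinted, encodes the stimulatory G protein alpha subunit, Gad2 an enzyme that makes GABA, and Lrp3 a receptor of the LDL receptor family. The Gnas member of 195 bp lay whole inside the printed window, and the next knockout peak began 176 bp away. The Gnas and Tfap2a members stopped short of the start itself. The Gad2 member of 624 bp covered 133 bases of its window, and no knockout peak lay within 121345 bp. The Prdm12 and Lrp3 members overlapped 166 and 216 bases of their windows. The Dio3os and Fendrr members overlapped 131 and 175 bases and had a knockout peak 701 and 501 bp away. Members in start windows thus included both regions far from any knockout H2A.Z peak and regions with one next door. Of the 40 members in protein-coding start windows, described next, 13 had a knockout peak within 5 kb and 10 had none within 50 kb.

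Start windows could be searched for the 792 members on the chromosomes that the window table covers. Of these, 40 (5.05%, 3.73 to 6.80%) overlapped the start window of a protein-coding gene, and in all 40 it was an internal start of the gene that held the member. The share was 0.827% of wild-type-only distal peaks without INO80 (60 of 7254), 4.22 percentage points lower (2.88 to 5.99), and 13.4% of distal peaks of both genotypes with INO80 (285 of 2122), a difference of -8.38 points for members (-10.4 to -6.15). LncRNA start windows were overlapped by 25 members (3.16%) and by 2.67% of the peaks without INO80 (a difference of 0.48 points, -0.60 to 1.98). For the peaks of both genotypes with INO80 the share was 5.04% (-1.89 points, -3.32 to -0.194). Together 64 members (8.08%) overlapped a start window of either kind, so "away from gene ends" does not mean away from every start window. With gene ends of all annotated types in the rule, 669 of the 817 members (81.9%) would remain.

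The 44 windows under members had a median GC content of 61.3% and a median of 18 CG dinucleotides in 300 bases, with an observed to expected CG ratio of 0.720. The 62 windows under wild-type-only peaks without INO80 had 54.7%, 9 and 0.446, and the 316 windows under peaks of both genotypes with INO80 had 62.7%, 21 and 0.726. All 21262 protein-coding windows had medians of 56.3%, 13 and 0.567. By these medians the member windows were close to those of the other INO80 class and richer in CG than all protein-coding windows. The medians describe whole windows, including bases outside the member, and the 44 windows belong to 40 members. At Ttll3 and Rpl19 the overlap was only 3 and 4 bases. The letters ATGGCGG are the core of the motif of YY1, a zinc finger protein that associates with the INO80 complex. They occurred on either strand in 2 of the 44 windows (4.55%), at Apc2 and Hnrnpul1, and in 5.24% of all windows. At Apc2 and Hnrnpul1 the letters lay outside the member.

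Members were narrow. Their widths ran from 147 bp, the smallest width in each list, to the width limit, with a median of 254 bp and quartiles of 182 and 361 bp. The median member stood at percentile 24.8 of width among all wild-type H2A.Z peaks. The rule drew on width and on the knockout list, so these values describe the selection. The widest member lay by Cdkn1a, which encodes the cyclin-dependent kinase inhibitor p21, and was exactly at the limit. Members of 717 bp inside Cdh15, a cadherin gene, and Sidt2 came next, followed by Celf2 (an RNA-binding protein) with 712 bp and Scn8a (a sodium channel) with 705 bp. Just outside the width limit were peaks of 725 bp at Orai2 and 728 bp at Usp9x.

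The other limits of the rule were as fine. Members by Nol3 and Col12a1 ended 2 and 23 bp from a knockout peak, while peaks by Htr1b and Cryba4 were left out for overlaps of 2 and 6 bp. Members by Mpnd and P2ry2 met INO80 over only 5 bp, and the nearest peaks left out, by Atp23 and Hhipl2, missed it by 19 bp. Members by Epb41l4b and Npas1 lay 1008 and 1012 bp from a gene end, and those at Pdzrn3 and Ptprg were left out at 999 and 997 bp. In all, 44 members (5.39%) had a knockout peak within 250 bp.

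The rule's own shares give the setting. Of all wild-type H2A.Z peaks 30.1% overlapped no knockout peak. Among the 16451 distal peaks within the width limit the share was 50.6%, and among the 3017 of these with INO80 it was 27.1%, which are the 817 members. Nothing is read from these shares, since they are the rule. Absence from the knockout list depended on peak width in both classes. For peaks of up to 250 bp it was 57.7% with INO80 and 74.9% without INO80, for those above 250 and up to 400 bp it was 28.7% with INO80 and 52.2% without INO80, and for those above 400 bp it was 11.6% with INO80 and 29.7% without INO80. In each width class the share was lower with INO80, by the same values that chose the members.

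**Figure D1:**
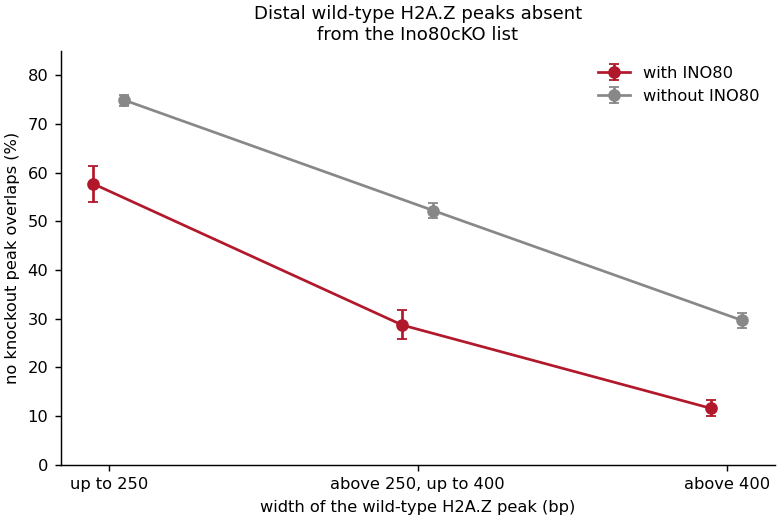
Share of distal wild-type H2A.Z peaks within the width limit that no Ino80cKO peak overlapped (y axis, %) in 3 width classes (x axis, bp), for peaks with INO80 (red) and without INO80 (grey). Points are shares and bars are Wilson 95% intervals for counting error; the share falls with width in both classes and is lower with INO80 in each, 57.7% against 74.9% in the narrowest.

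The INO80 peaks over the members were of all sizes, from 147 to 19465 bp. Their median width was 841 bp (quartiles 307 and 1856 bp) over members and 666 bp over distal H2A.Z peaks of both genotypes. These medians count an INO80 peak once for each H2A.Z peak. Counted once each, the 789 INO80 peaks over members had a median of 777 bp, against 678 bp in the whole INO80 list. A wide INO80 peak overlaps more easily, so the comparison with the whole list is not like for like. INO80 peaks of 3 kb or more lay over 100 members (12.2%, 10.2 to 14.7%) and over 7.64% of the distal peaks of both genotypes, a difference of 4.60 points (2.22 to 7.24). INO80 peaks under 500 bp lay over 36.6% of members and 39.8% of the other class, a difference of -3.18 points whose interval held 0 (-7.01 to 0.75). Members are the narrower H2A.Z class, and at matched width the picture was mixed. For INO80 of 3 kb or more the difference was 4.35 points (-0.652 to 9.10) among H2A.Z peaks of up to 250 bp, 1.58 points (-2.19 to 6.16) above 250 and up to 400 bp and 5.15 points (0.719 to 11.1) above 400 bp. For INO80 under 500 bp the middle width class had a difference of -9.66 points (-16.7 to -2.34), and the intervals of the other width classes held 0.

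INO80 covered the whole of 497 members (60.8%, 57.4 to 64.1%) and of 49.3% of the distal peaks of both genotypes with INO80. In each of the 3 width classes the interval of this difference held 0. The centre of a member lay a median of 163.5 bp from the centre of its INO80 peak, against 113 bp in the other class. This offset was not compared at matched width. By their medians, members had wider INO80 peaks (841 against 666 bp) and were narrower themselves (254 against 454 bp). In 162 members (19.8%) the INO80 peak itself reached to within 1 kb of a protein-coding gene end, against 11.8% of the other class, 8.01 points more (5.06 to 11.2), with differences of 5.30 points (-0.595 to 10.9), 7.37 points (1.89 to 13.4) and 5.32 points (0.337 to 11.7) from the narrowest width class to the widest.

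**Figure D2:**
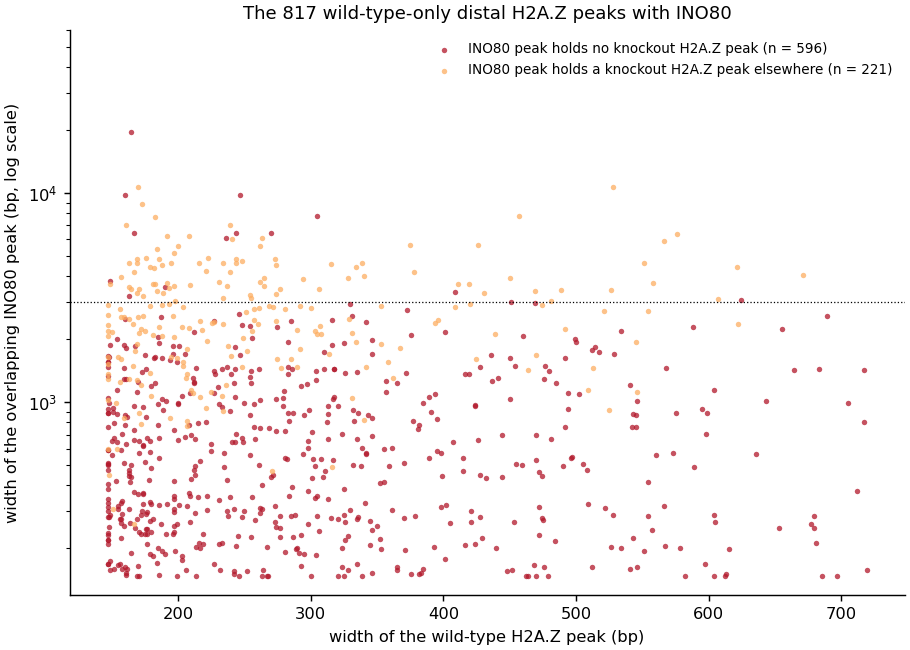
Each point is 1 of the 817 members, placed by its own width (x axis, bp) and the width of the INO80 peak over it (y axis, bp, log scale); the dotted line marks 3 kb. Red points are the 596 members whose INO80 peak held no knockout H2A.Z peak and orange points the 221 whose INO80 peak held one elsewhere; the orange points lie mostly among the wide INO80 peaks.

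The 817 members fell into 789 INO80 peaks. In 581 of these (73.6%) no knockout H2A.Z peak was listed anywhere under INO80, and in 208 a knockout peak stood elsewhere in the same INO80 peak. For 557 members (68.2%) the member was the only H2A.Z peak of either genotype under its INO80 peak. By contrast, 27 INO80 peaks held 2 or 3 members each, 56 members in all, and 14 of the 27 had no knockout peak. So most members were single H2A.Z peaks under their own INO80 peak, and a minority were part of a group. Sharing was still more frequent than in distal peaks of both genotypes with INO80. Another knockout peak shared INO80 in 27.1% against 14.4%, 12.6 points more (9.33 to 16.1). Another wild-type peak did in 28.9% against 18.6%, 10.2 points more (6.81 to 13.8). At matched width the knockout difference was 9.81, 6.62 and 8.82 points, from narrowest to widest. The wild-type difference was 2.89 points (-4.15 to 9.77), 4.17 points (-1.99 to 10.8) and 8.17 points (2.17 to 15.3).

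The groups without knockout H2A.Z are shown at 3 genes. Prdm12 lay on chromosome 2 under an INO80 peak of 6461 bp (31634387 to 31640847) that held 4 wild-type H2A.Z peaks and no knockout peak; 3 of the 4 were members, of 244, 167 and 270 bp, and the nearest knockout peak was at least 13699 bp from any of them. Skor1, a transcriptional corepressor gene, had 2 members of 247 and 160 bp among 3 wild-type peaks and no knockout peak under 9825 bp of INO80. Synpo2, which encodes an actin-binding protein, had 3 members of 318, 233 and 243 bp in a row within the gene under 1437 bp of INO80 (chromosome 3, 123112432 to 123113868), with no knockout peak within 121920 bp. At these genes every H2A.Z peak under INO80, or all but 1, was a member.

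Tnrc18, a gene with chromatin-binding domains, showed the other pattern: its INO80 peak of 10631 bp held 6 knockout and 8 wild-type H2A.Z peaks, of which 2 wild-type peaks, of 170 and 528 bp, were members. Ebf2, a transcription factor gene, had a single member of 173 bp among 3 knockout and 3 wild-type peaks under 8895 bp of INO80. Over all 87 INO80 peaks of 3 kb or more with a member, 76 held a knockout peak and 11 did not. The INO80 list had 551 peaks of this width, and how many of the 551 held a knockout peak is not given here. The 11 lay at Gad2, Prdm12, Dlx2, Ajap1, Ntf3, Ebf3, Gas8, Skor1, Neurog3, Cbarp and Irx4. Dlx2, Ebf3, Neurog3 and Irx4 encode transcription factors of neural, pancreatic or heart development, Ntf3 a neurotrophin and Ajap1 a protein of cell junctions. Six3, a forebrain homeobox gene outside the list of developmental regulators used below, had a 161 bp member under 7030 bp of INO80 with a knockout peak 2975 bp away. The Neurog3 member, of 305 bp, was the only wild-type H2A.Z peak under 7737 bp of INO80, and the Gas8 member, of 165 bp, the only one under 19465 bp over the 5S ribosomal RNA genes, where reads from repeated gene copies can be hard to place.

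**Figure D3:**
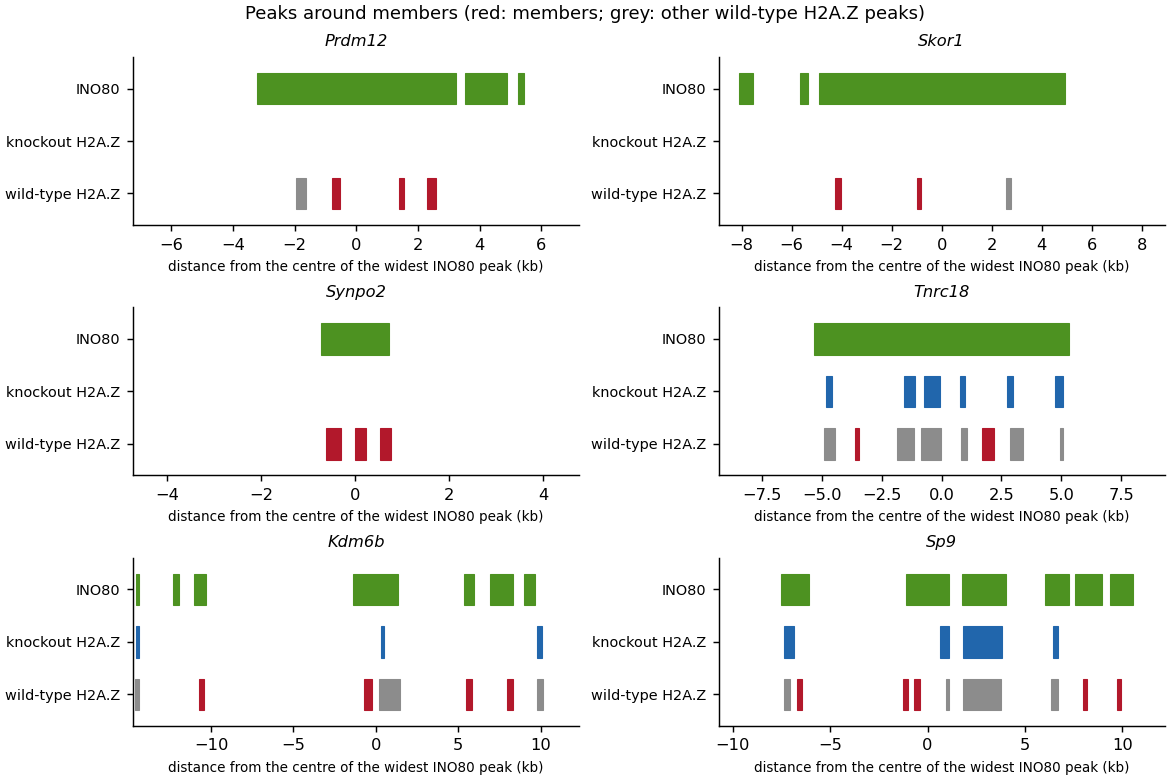
Peak positions around members at 6 genes, drawn to scale along the x axis in kb from the centre of the widest INO80 peak over a member. The 3 rows are INO80 (green), knockout H2A.Z (blue) and wild-type H2A.Z (members red, other peaks grey); the knockout row is empty at Prdm12, Skor1 and Synpo2 and holds 6 peaks under INO80 at Tnrc18.

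Most members lay inside a protein-coding gene. Of the members, 501 (61.3%, 57.9 to 64.6%) were inside a protein-coding gene, against 31.3% of wild-type-only peaks without INO80 and 59.5% of peaks of both genotypes with INO80. The difference from the peaks without INO80 was 30.0 points (26.5 to 33.5), and from the peaks of both genotypes 1.87 points (-2.08 to 5.74). The first difference held in each width class: members of up to 250 bp, above 250 and up to 400 bp, and above 400 bp were inside genes in 61.6%, 61.9% and 59.8%, and peaks without INO80 in 31.0%, 31.3% and 32.2%. In a comparison added after seeing the data it was smaller away from gene ends, with 46.8% of members and 28.1% of peaks without INO80 beyond 5 kb (18.7 points, 13.9 to 23.6), and 37.3% of members and 25.8% of peaks without INO80 beyond 20 kb (11.5 points, 5.21 to 18.1). On this measure members lay close to the peaks that also carried INO80 and away from the peaks that shared only their absence from the knockout list. LncRNA genes held 16.4% of members and 15.7% of the peaks without INO80, a difference of 0.68 points (-1.84 to 3.50).

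Members were also closer to gene ends than the peaks without INO80. A protein-coding gene end lay within 5 kb of 392 members (48.0%, 44.6 to 51.4%), of 12.0% of wild-type-only peaks without INO80 and of 40.3% of peaks of both genotypes with INO80. Members exceeded the peaks without INO80 by 35.9 points (32.5 to 39.5) and the other INO80 class by 7.66 points (3.68 to 11.7). From the narrowest width class to the widest, the difference from the other INO80 class was 0.261 points (-7.22 to 7.72), 7.69 points (0.337 to 14.97) and 6.56 points (-1.18 to 14.5), so the interval held 0 in the narrowest and the widest class. The median distance to a gene end was 5499 bp for members, 32438 bp for peaks without INO80 and 7900 bp for peaks of both genotypes with INO80. At the far end, 115 members (14.1%) lay beyond 50 kb of any gene end, against 39.8% of the peaks without INO80. When members whose INO80 peak came within 1 kb of a gene end were left out, 56.0% of the remaining 655 were inside a protein-coding gene, still 24.8 points above the peaks without INO80 (20.8 to 28.7).

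**Figure D4:**
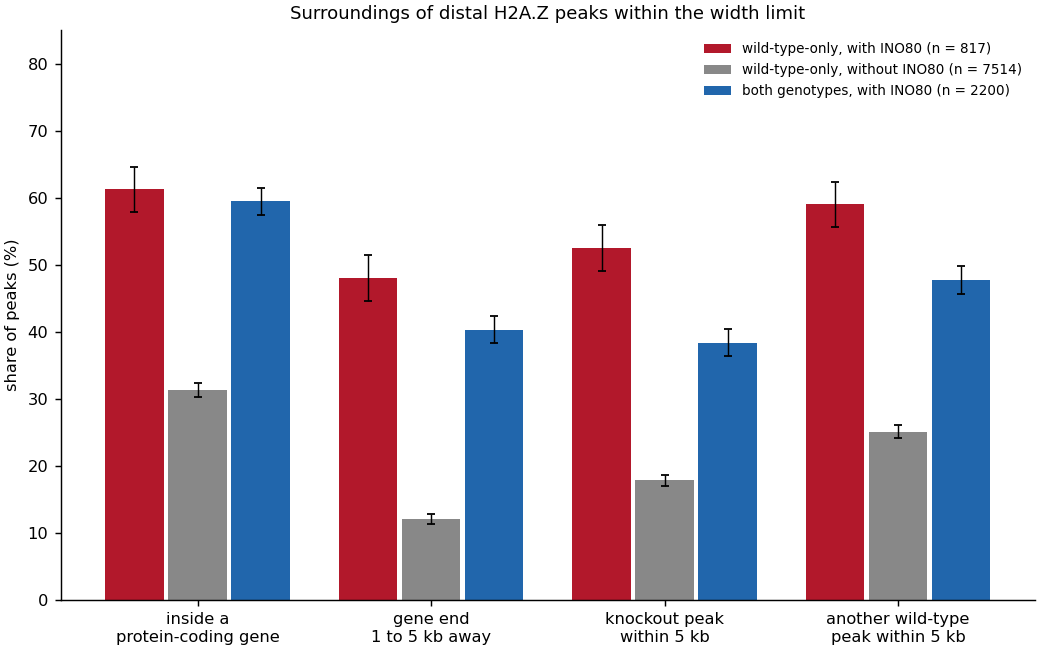
Share of peaks (y axis, %) with 4 features (x axis) among the 817 members (red), the 7514 wild-type-only distal peaks without INO80 (grey) and the 2200 distal peaks of both genotypes with INO80 (blue), all within the width limit. Error bars are Wilson 95% intervals for counting error; for peaks inside genes the members (61.3%) stand beside the blue class (59.5%) and above the grey class (31.3%).

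By the rule no knockout peak overlapped a member, but most members had one listed nearby. A knockout peak was listed within 1 kb of 226 members (27.7%, 24.7 to 30.8%) and within 5 kb of 429 (52.5%, 49.1 to 55.9%). For wild-type-only peaks without INO80 the shares were 8.34% within 1 kb and 17.8% within 5 kb. For peaks of both genotypes with INO80, leaving aside the knockout peak that overlapped them, they were 17.1% and 38.4%. From the narrowest width class to the widest, the 1 kb difference from this class was 11.6 points (4.91 to 18.1), 0.359 points (-5.54 to 6.78) and 7.76 points (1.91 to 14.8). Within 5 kb it was 8.70 points (1.17 to 16.1), 12.9 points (5.52 to 20.1) and 10.6 points (2.74 to 18.5). Because the rule used the knockout list, these shares are descriptions and carry no test. The median distance to the nearest such knockout peak was 4330 bp for members, 23357 bp for peaks without INO80 and 8683 bp for peaks of both genotypes.

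The order of the classes was the same farther from gene ends. Beyond 5 kb of a gene end, a knockout peak lay within 5 kb of 34.8% of members, 14.2% of peaks without INO80 and 24.4% of peaks of both genotypes. Wild-type peaks were crowded too: another wild-type peak lay within 5 kb of 482 members (59.0%), of 25.1% of peaks without INO80 and of 47.7% of peaks of both genotypes. At matched width the difference from the peaks of both genotypes was 4.52 points (-2.81 to 11.9) in the narrowest class, 8.44 points (1.11 to 15.5) in the middle one and 4.46 points (-3.41 to 12.4) in the widest. Among the 226 members with a knockout peak within 1 kb, the nearest one in 183 (81.0%) overlapped another wild-type peak, and in 43 (19.0%) it overlapped none. Most close neighbours in the knockout list were therefore peaks that wild-type cells also had. The same share over all knockout peaks is not given here, so 81.0% does not set these neighbours apart from other knockout peaks. Within 2 kb, 35 members had knockout peaks on both sides, 274 on 1 side and 508 on neither side.

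**Figure D5:**
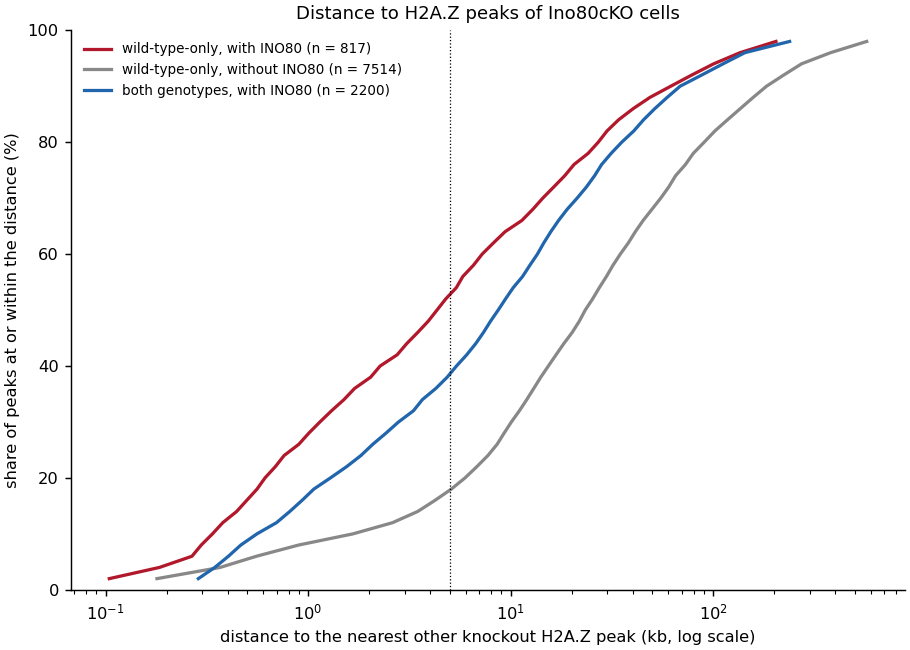
Cumulative share of peaks (y axis, %) by distance to the nearest knockout H2A.Z peak other than one that overlaps the peak (x axis, kb, log scale), for the 817 members (red), 7514 wild-type-only peaks without INO80 (grey) and 2200 peaks of both genotypes with INO80 (blue); percentiles from 2 to 98 are drawn. At the dotted line of 5 kb the curves stand at 52.5%, 17.8% and 38.4%.

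At the other extreme, 95 members (11.6%) had no knockout peak within 50 kb, and 59 of these (7.22% of all) had no H2A.Z peak of either genotype within 50 kb. Of wild-type-only peaks without INO80 31.9% had no knockout peak within 50 kb. Among peaks of both genotypes with INO80, leaving aside the knockout peak that overlapped them, 14.4% had none. The difference from this last class was -2.78 points (-5.32 to -0.0173), and its interval held 0 in each width class. The share was thus not higher in members than in either class. The INO80 peaks over the 95 had a median width of 449 bp. Those with wide INO80 peaks, named after their values were seen, included Ntf3 with a 163 bp member under 3213 bp of INO80 and 359492 bp from the next knockout peak. The NMDA receptor gene Grin2b had a 285 bp member 127861 bp from the next knockout peak, and the X-linked gene Nhs a 243 bp member 190505 bp away. At Htr1a, which encodes a serotonin receptor, the 529 bp member had another wild-type H2A.Z peak 377 bp away and the next knockout peak only at 150063 bp. At such places the knockout list held no peak in the neighbourhood of an INO80 peak of wild-type cells.

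Developmental regulators, here 76 genes that pattern the embryo, Hox genes among them, were prominent among the nearest genes. A member lay inside or nearest to 36 of the 76 (47.4%), and to 725 of all 21883 protein-coding genes (3.31%). The list was drawn up with earlier results on INO80 at these genes known, so the count is not independent evidence. By peaks, 46 members (5.63%, 4.25 to 7.43%) had such a gene, against 1.24% of wild-type-only peaks without INO80 and 3.09% of peaks of both genotypes with INO80, differences of 4.39 points (2.98 to 6.20) and 2.54 points (0.937 to 4.45). The difference from the other INO80 class was 3.76 points (0.505 to 6.91) in the narrowest width class, and its interval held 0 in the middle and widest ones. Beyond 5 kb of gene ends the shares were 4.00% of members, 1.32% of peaks without INO80 and 3.05% of peaks of both genotypes, and beyond 20 kb 1.82%, 1.50% and 2.35%. Beyond 5 kb the difference from the peaks without INO80 was 2.68 points (1.17 to 5.01) and the interval of the difference from the other INO80 class held 0 (0.954 points, -0.882 to 3.40). Beyond 20 kb both intervals held 0 (0.321 points, -0.854 to 3.10, and -0.529 points, -2.39 to 2.38). The 46 members had a median width of 231.5 bp under INO80 peaks of a median 1257.5 bp, and 26 had a knockout peak within 5 kb.

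Of the 46 members near developmental regulators 30 lay outside the gene, and 9 of the 36 genes had more than 1. The LIM and homeobox factors Lhx9, Lhx3, En1, En2, Msx1, Msx2, Dlx2 and Dlx5, the Gata factors Gata2, Gata3, Gata4 and Gata6, the forkhead factors Foxa1, Foxa2 and Foxf1 and the neural basic helix-loop-helix factors Neurog2, Neurog3 and Olig2 each had at least 1. Wnt7b, a signalling ligand, had a 457 bp member under 7776 bp of INO80 and a 295 bp member under 866 bp, and Wnt3a a 294 bp member under 3896 bp. Olig2 had a 183 bp member under 7698 bp of INO80 that also held 2 knockout peaks. Irx2 had a pair of members of 168 and 201 bp under 1856 bp of INO80, with the next knockout peak 7650 bp away.

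The Hox clusters, whose genes pattern the body axis, held 8 members at 6 genes. On chromosome 11 they lay by Hoxb9 (261 and 159 bp), Hoxb6 (342 bp) and Hoxb3 (163 and 147 bp), on chromosome 6 by Hoxa3 (277 bp) and Hoxa9 (240 bp), and on chromosome 15 by Hoxc4 (148 bp). Each of the 8 had a knockout peak at between 3109 and 19236 bp, so none was next to one. The INO80 peaks over them were of 257 to 2416 bp, and none reached 3 kb.

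A few genes had several members. Of the 725 genes, 651 had 1 member, 62 had 2 and the rest 3 or more. Kdm6b, which encodes a demethylase of the Polycomb mark on histone H3, had 4, all inside the gene on chromosome 11, of 269, 521, 339 and 372 bp, under 4 separate INO80 peaks of 602 to 2738 bp. Only 1 of the 4 INO80 peaks held a knockout peak. Ryr1, the calcium release channel gene of skeletal muscle, also had 4 inside the gene, of 243, 365, 179 and 186 bp, at 13871 to 18251 bp from a knockout peak. Sp9, a zinc finger factor of limb and brain, had 4 on either side of the gene, of 278, 256, 303 and 173 bp, with knockout peaks 144 to 1656 bp away. Knockout peaks stood 494 to 3928 bp from the Kdm6b members, so of the 3 genes only Ryr1 had all its members far from knockout H2A.Z.

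Between Hrh1, a histamine receptor gene, and Atg7, an autophagy gene, 9 members lay in 92.4 kb of chromosome 6 (114493004 to 114585403), in which 42 INO80, 34 knockout H2A.Z and 40 wild-type H2A.Z peaks were listed. Their widths ran from 147 to 545 bp, and a knockout peak stood within 97 to 4739 bp of each. Here members were a minority in a dense row of INO80 peaks and of H2A.Z peaks of both genotypes. The transcription factor genes Nr2f2, Pax2 and Tbx20 and the cytoskeletal gene Septin9 had 3 members each. The Pax2 members, of 181, 437 and 174 bp, lay 75940, 11474 and 6209 bp from the gene, and those of Tbx20 under INO80 peaks of 1236 and 1235 bp. Over the genome 666 members had no other member within 20 kb, and 151 stood in runs of 2 to 5.

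The lists of germ cell genes and of H2A.Z machinery genes were short. No member was found at 48 genes of meiotic recombination and synapsis, 26 piRNA pathway genes and 27 genes for H2A.Z and the complexes that load or remodel it. Of all protein-coding genes 3.31% had a member, and these counts were not tested. By peaks, these lists had 0.106%, 0.0532% and 0.0665% of wild-type-only peaks without INO80. They had 0.136%, 0.0455% and 0.0909% of peaks of both genotypes with INO80. With shares this low, the empty lists do not set members apart. Of 32 spermatogonial genes 10 did (31.2%), of which Neurog3 and Lhx1 are also patterning factors. By peaks, this list had 1.22% of members, 0.426% of wild-type-only peaks without INO80 and 0.773% of peaks of both genotypes with INO80. Zbtb16, a factor of spermatogonial stem cells, had a 274 bp member 63 bp from a knockout peak under 3285 bp of INO80. Gfra1, the receptor of the niche factor GDNF, had a 607 bp member under 3118 bp of INO80, and Lin28a, an RNA-binding pluripotency factor, a 293 bp member 16677 bp from the next knockout peak. Egr2 and Rarg were also among the 10. So was Foxo1, by a 249 bp member 250915 bp from the gene end, which shows how loose the link of a peak to its nearest gene can be.

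Of 36 Polycomb genes 5 had a member (13.9%), among them Auts2 (489 bp, under 3425 bp of INO80), Cbx6 (416 bp), Bcor (147 bp) and Phc1 (192 bp, at 52773 bp from the gene). Auts2 and Bcor encode parts of variant PRC1 complexes, Cbx6 a protein that reads the Polycomb mark, and Phc1 a PRC1 subunit. Spermiogenesis genes had a member at 2 of 41: Hspa1l, inside the gene, and Pgk2, at 91621 bp from the gene. Markers of somatic testis cells had one at 2 of 38: Sox9, a Sertoli cell factor, with members of 179 bp inside the gene and 206 bp at 23718 bp from it, and Wt1 with 355 bp. Of all protein-coding genes 3.31% had a member. By peaks, Polycomb genes had 0.612% of members, 0.213% of wild-type-only peaks without INO80 and 0.636% of peaks of both genotypes with INO80, so the members' share was close to that of the other INO80 class. In the same order of classes, spermiogenesis genes had 0.245%, 0.120% and 0%, and somatic markers 0.367%, 0.386% and 0.273%. These are positions of peaks and say nothing of how much the genes were expressed.

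A miRNA gene lay within 1 kb of 7 members (0.857%, 0.416 to 1.76%) and of 0.120% of wild-type-only peaks without INO80. For peaks of both genotypes with INO80 the share was 0.455%, a difference of 0.402 points whose interval held 0 (-0.180 to 1.33). From the narrowest width class to the widest this difference was -1.02 points (-2.96 to 0.143), 0.484 points (-0.553 to 2.59) and 2.57 points (0.806 to 6.36). Members of the 7 are named below. Apart from Mir1247, the miRNA genes near members included the neural Mir9-1 (567 bp from a member), Mir124a-1 (360 bp) and Mir129-2 (529 bp). Near Mir124a-1, members of 234 and 339 bp shared an INO80 peak of 4652 bp, and near Mir129-2 members of 334 and 621 bp shared one of 4451 bp. Both of these INO80 peaks also held a knockout peak. LncRNA start windows met by members under wide INO80 peaks included those of Gm10421 inside Ptprn2 (5642 bp of INO80) and of a lncRNA next to Klf9. A 326 bp member lay on the start of the lncRNA gene Gm34081, 25077 bp from the imprinted gene Rtl1.

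By chromosome the members were most numerous on 7 (75), 11 (71) and 2 (66). As a share of distal peaks with INO80, members made up 18.9% on chromosome 14 at the lowest and 35.7% on chromosome 10 at the highest among autosomes. Chromosome X, which is silenced in pachytene spermatocytes, had 14 members, 22.6% of its 62 such peaks and so within the range of the autosomes. The 14 were 1.71% of members (1.02 to 2.86%), against 0.506% of wild-type-only peaks without INO80 and 2.18% of peaks of both genotypes with INO80, differences of 1.21 points (0.493 to 2.36) and -0.468 points (-1.45 to 0.792). They included members at Bcor (147 bp), its relative Bcorl1 (381 bp) and Cited1 (227 bp), a transcriptional coactivator gene. Chromosome 18 had 25 members, of which 3 lay in the Pcdha protocadherin cluster, and chromosome Y had 1.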

How the data were processed

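The authors deposited 1 peak list per ChIP group, with chromosome, start and end per peak and no other measurement, so the unit of the deposited files is a position (classed as other) and no count, signal or score was used. The submitters' processing notes list Bowtie2, SAMtools, deepTools, MACS2 and mm10, with no version or role. The threshold for peaks, the control and how the 2 libraries per group were joined are not given in the sources used. Because listing depends on depth and threshold, a peak absent from 1 list may differ in strength by little. Input libraries were not analysed here.

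Overlap meant sharing at least 1 bp. Starts and ends of genes came from the RefSeq table of GRCm38.p6, which is mm10 (21883 protein-coding genes on the chromosomes used). A gene end is either annotated end, so the 3 prime end counts like the start. Each member was given to the protein-coding gene that holds it, otherwise to the nearest gene end. The classes compared were the 817 members, 7514 wild-type-only distal peaks without INO80, 2200 distal peaks of both genotypes with INO80 and 5920 without, all within the width limit of 719 bp (70.0% of wild-type peaks), which comes with the rule. Start windows and miRNA sequences came from RefSeq tables, and start windows on chromosome 18 were not used here. With 1 list per group no test over samples was run, and Wilson and Newcombe 95% intervals were used.

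The members and the 8 gene lists (326 entries, 325 matched, 5 through an older symbol) were chosen with earlier results of these data known. The members named are the 10 widest, the 10 under the widest INO80 peaks and those at genes with 3 or more members. Also named are up to 4 members per gene list, those next to each threshold, and up to 10 at noncoding start windows or miRNAs. Other genes were named after their values were seen, and a few genes that the rule names are not reported here. Scripts ran in Python 3.11.15 (pandas 2.3.3, numpy 2.4.6, statsmodels 0.14.6), and overlaps were checked against bedtools 2.31.1 and tested on simulated data.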

Additional observations from a re-analysis of the deposited data

How the results depend on the processing

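Absence from the knockout list depends on a threshold and depth that are unknown, a list stands for 2 libraries, and neighbouring peaks are not independent, so no interval here covers biological spread. Of 47 alternatives over 5 results, 28 moved the value by less than its 95% interval or, for the count, by less than 1.5 times, and 19 did not. The number of members fell to 528 and 425 with gene ends at 3 and 5 kb, to 449 with the widest 50% of INO80 peaks and to 121 with the widest 50% of wild-type peaks. The share inside a protein-coding gene was 52.3% and 46.8% with gene ends at 3 and 5 kb, 76.3% for genes of any type and, chosen after seeing the data, 56.0% with INO80 peaks themselves beyond 1 kb of gene ends. The share with a knockout peak near was 37.8% within 2 kb, 65.0% within 10 kb, 46.2% for members above 400 bp, 40.3% and 34.8% with gene ends at 3 and 5 kb, and 45.5% with INO80 peaks beyond 1 kb of gene ends. The median INO80 width was 992 bp when INO80 had to cover 50% of the peak, 594 and 533 bp with gene ends at 3 and 5 kb, and 581 bp with INO80 peaks beyond 1 kb of gene ends. The share on chromosome X was 0.405% for members above 250 and up to 400 bp. The cause of these shifts was not tested. No paired analysis was possible because the lists join the libraries of each group and carry no replicate.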
